A study of Rattus norvegicus with 10 samples.

Results

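The genes described here are those that mark the non-parenchymal scaffold of the liver: the hepatic stellate cells and the matrix they lay down, and the endothelium that lines the sinusoids. They are 36 symbols, of which 25 belong to the stellate and matrix side and 11 to the endothelial side. They were chosen by gene name, with earlier results of these data known. A member was followed through its brightest annotated probe set, by the mean of the 10 arrays, which gave 35 measured members out of 14217 measured genes. Cdh5, the endothelial cadherin, was not analysed here, and Ctgf was measured under its present symbol, Ccn2.

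Liver RNA came from 2 groups of 5 samples, all from female Harlan Sprague-Dawley rats gavaged 5 days per week for 13 weeks as the labels give it. The I3C group received indole-3-carbinol, a compound released from cruciferous vegetables, at 300 mg per kg in corn oil, and the vehicle group corn oil alone, labelled as 0 mg per kg. According to the series design the rats belonged to a longer chronic toxicity study, and no age is given. Each sample was read on 1 whole-genome 3′ expression array, and the labels do not say that the samples are separate animals, so that a p-value here reflects only how far these samples spread, which may be technical.

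Stellate cells lie between the hepatocytes and the sinusoidal endothelium, where at rest they store retinyl esters. When the liver is injured they turn into contractile cells that secrete fibrillar collagen, and rising type I collagen, smooth muscle actin and tissue inhibitor of metalloproteinases are the usual transcript signs of that change. Sinusoidal endothelial cells are fenestrated, rest on a sparse matrix and clear waste molecules from blood through the stabilin receptors.

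Of the 35 members 1 rose and 2 fell in the I3C group, and 32 did not pass the test. Rgs5, a regulator of G-protein signalling typical of pericytes, rose 2.51-fold, while Bgn, the small proteoglycan biglycan, and Fn1, fibronectin, fell 1.28-fold and 1.22-fold. The test was limma on the authors' log2 values of all 31042 probe sets, two-sided, with Benjamini-Hochberg adjustment over all of them. "Rose" and "fell" stand for an adjusted p under 0.05, and a difference is given ± the SE that limma estimated. The 3 members are 8.57% of the 35, beside 6.43% of all genes tested, so that the share of called members lay near the background. In bulk liver, fewer cells of a type and less RNA per cell cannot be told apart.

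The members lay mostly on the lower side by small amounts. A lower mean in the I3C group was found in 29 of 35 members, beside 51.4% of all genes, and the median difference was -0.15 on the log2 scale, beside -0.00 over all genes. The median was -0.19 for the 25 stellate and matrix members, of which 20 were lower, and -0.09 for the 10 endothelial members, of which 9 were lower. At an unadjusted p under 0.05, 10 members were lower and 1 was higher, where 10.2% of all genes were lower and 9.62% higher, or 19.8% in either direction. The groups did not overlap in 3 members, Rgs5, Bgn and Fn1, and in 8.67% of all genes. Of those 10, 9 were stellate or matrix genes and 1 was endothelial. These genes share cells and arrays, so that the members are not independent of one another. They were also chosen with earlier results of these data known, so that the shares beside all genes do not test the set.

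**Figure D1:**
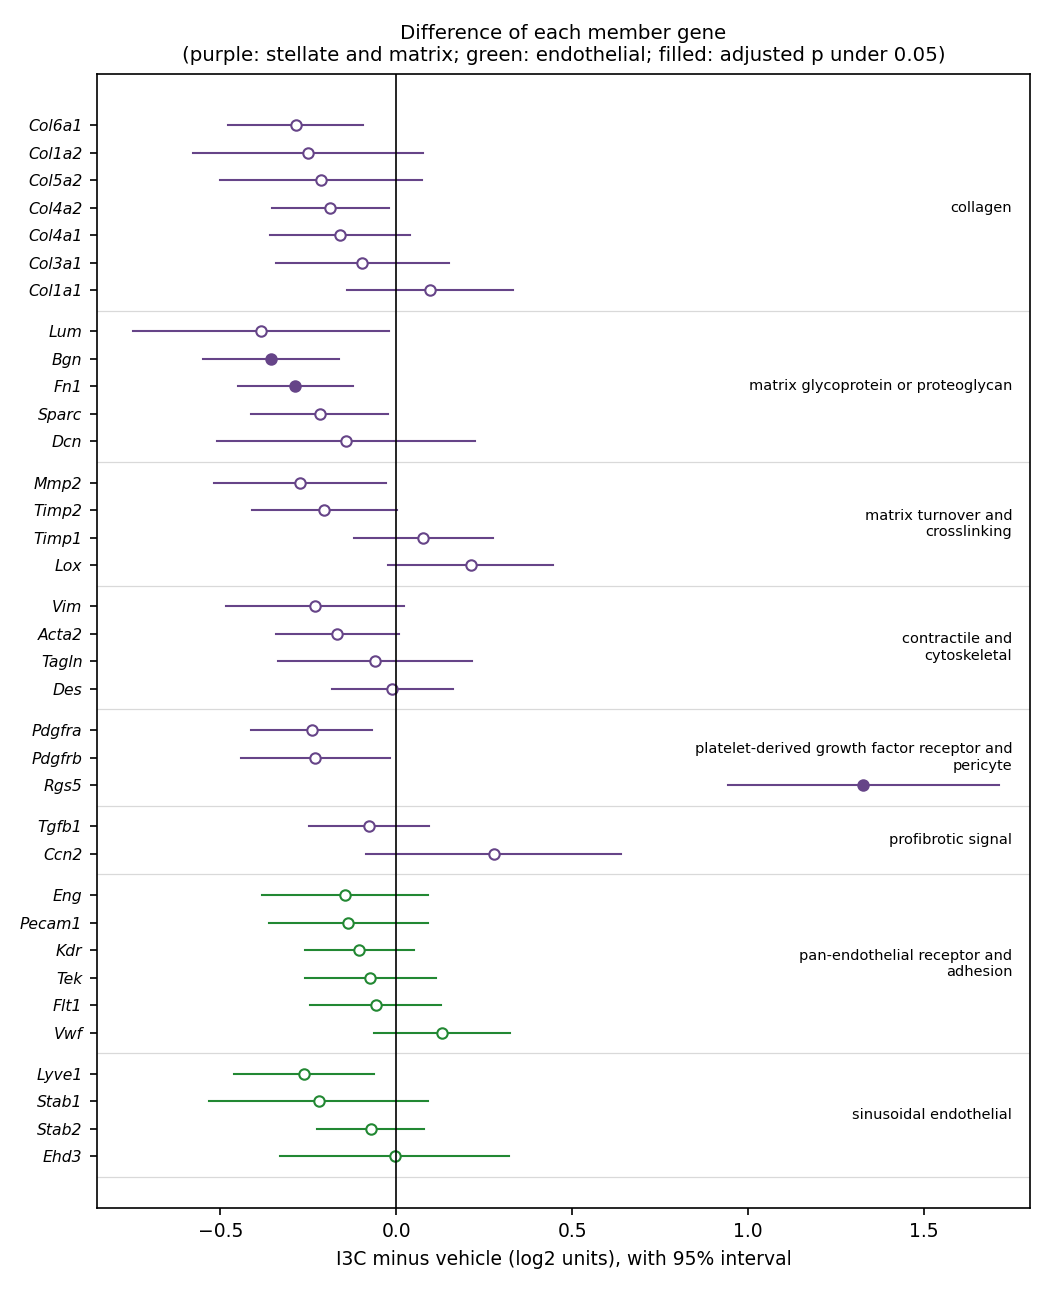
Difference between the I3C and vehicle means of each measured member in log2 units (x axis), with its 95% interval from limma, in 8 groups by role (y axis). Rgs5 stands alone at 1.33, and most of the other members sit left of 0 with intervals that reach or nearly reach it.

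Rgs5 and the collagen IV pair are shown with genomic sequence because Rgs5 is the member that rose and because the pair starts head to head from 1 short stretch. The sequences are those of RefSeq on build GRCr8. The array measures the 3′ end of a transcript and does not read these bases. The window of Rgs5 runs over the 250 bases before the annotated start on the forward strand, at chr13:84380827-84381076, and the capitals mark the letters GGAAGT, a core bound by ETS factors.
Rgs5: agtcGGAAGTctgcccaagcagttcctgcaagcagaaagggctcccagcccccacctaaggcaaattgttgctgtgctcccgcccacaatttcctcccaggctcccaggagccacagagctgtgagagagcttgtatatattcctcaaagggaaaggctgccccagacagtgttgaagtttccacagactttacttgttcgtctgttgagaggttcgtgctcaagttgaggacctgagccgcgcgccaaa
Col4a1 and Col4a2 point away from each other, and the 76 bases between their annotated starts, at chr16:84885521-84885596, are given in the direction of Col4a1.
Col4a1 and Col4a2: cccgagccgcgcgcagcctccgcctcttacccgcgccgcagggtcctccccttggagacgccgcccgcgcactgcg

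Windows of 250 bases before the start were found for 23 of the 35 members and were searched on both strands for 5 motifs. The 33469 promoters set beside them are not limited to the 14217 measured genes. GCGTG, the core that the activated aryl hydrocarbon receptor binds, stood in 7 of the 23 (30.4%) beside 25.9% of 33469 promoters. It was in the windows of Col4a1, Col4a2, Col6a1, Lum, Tgfb1, Kdr and Flt1, and its letters are not in the Rgs5 window. GGAAGT stood in 4 (17.4%), beside 19.2% of promoters: those of Rgs5, Eng, Flt1 and Kdr. The TATAAA letters were in 4 windows (17.4%), those of Ccn2, Col1a2, Flt1 and Vim, beside 12.9%. Neither GTCTAGAC, a Smad-binding palindrome, nor the CArG box, bound by serum response factor, was in any of the 23, beside 0.173% and 1.5% of promoters. A CArG box can hold the letters TATAAA, and no other motif of the 5 can hold another. None of the motifs lies in the 76 bases between Col4a1 and Col4a2. Their GCGTG letters begin at -196 and -178 from their own starts, which is past the start of the other gene of the pair.

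Of the pericyte gene and the 2 platelet-derived growth factor receptors, Rgs5 rose and neither receptor passed. Which cells gave the Rgs5 signal in bulk liver was not tested. In vehicle arrays 1 to 5 Rgs5 read 6.22, 5.88, 5.11, 5.71 and 5.68 on the log2 scale, and in I3C arrays 1 to 5 it read 7.32, 6.93, 6.69, 7.02 and 7.29. The lowest I3C array lay 0.47 above the highest vehicle array, and vehicle 3 was the lowest of all. The difference was 1.33 ± 0.18 (SE, n = 5 per group, limma adjusted p = 0.000865), from a mean of 5.72 ± 0.40 (SD, n = 5) to 7.05 ± 0.26 (SD, n = 5). A gap between the groups on the higher side was found in 4.61% of all genes. Rgs5 kept its call when any 1 array was left out, with differences of 1.18 to 1.45.

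Pdgfrb, the receptor through which platelet-derived growth factor drives stellate cells to divide, read 7.17, 7.21, 6.94, 7.05 and 7.46 in vehicle arrays and 6.97, 6.78, 6.96, 6.85 and 7.12 in I3C arrays. The groups overlapped, and the difference of -0.23 ± 0.10 did not pass (adjusted p = 0.255). The other 2 probe sets of Pdgfrb lay at -0.01 ± 0.10 and 0.03 ± 0.07, so that the gene's probe sets disagreed. Pdgfra, the related receptor carried by stellate cells and portal fibroblasts, differed by -0.24 ± 0.08 (adjusted p = 0.123). Its vehicle array 5 lay at 8.83, among the I3C arrays, whereas the other 4 were above every I3C array. Without vehicle 5 the difference was -0.30 ± 0.06 and passed (limma adjusted p = 0.012), and with weights on the arrays it was -0.29 (limma adjusted p = 0.0164).

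Bgn and Fn1 were the fallen members, and all 5 glycoprotein and proteoglycan genes of the matrix were lower in the I3C group. Bgn, which decorates collagen fibres, read 9.83, 10.05, 9.86, 9.89 and 10.25 in vehicle arrays and 9.47, 9.75, 9.66, 9.64 and 9.57 in I3C arrays. Every I3C array was below every vehicle array, by a gap of 0.08, and gaps on the lower side were found in 4.07% of all genes. The difference was -0.36 ± 0.09 (SE, n = 5 per group, limma adjusted p = 0.0388). It lost its call without vehicle 2, 3 or 4 or without I3C 1, 3, 4 or 5, with differences of -0.39 to -0.29 and adjusted p up to 0.0952 over the 10 omissions.

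Fn1 encodes fibronectin, which hepatocytes secrete into plasma and stellate cells lay down in tissue, so that its probe set is not a measure of stellate cells alone. Its vehicle arrays read 13.32, 13.35, 13.43, 13.25 and 13.42, and its I3C arrays 12.86, 13.01, 13.18, 13.18 and 13.11. The groups did not overlap, with a gap of 0.06, and I3C 1 was the lowest. The difference was -0.29 ± 0.07 (SE, n = 5 per group, limma adjusted p = 0.0474), and the call ended whichever array was left out, at adjusted p of 0.0520 to 0.116.

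Lum, which encodes the collagen-binding proteoglycan lumican, was dim, at the 14.4th percentile of probe sets. It read 3.98, 4.67, 4.83, 4.66 and 4.55 in vehicle arrays and 4.27, 3.91, 3.81, 4.18 and 4.58 in I3C arrays, and its difference of -0.38 ± 0.17 did not pass (adjusted p = 0.273). Its groups overlapped through vehicle 1 and I3C 5. Sparc, a calcium-binding matrix protein, differed by -0.22 ± 0.09 through its brightest probe set and by 0.18 ± 0.20 through the other. Dcn, the proteoglycan decorin, differed by -0.14 ± 0.17 (adjusted p = 0.789).

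Of the 7 collagen genes none passed, 6 were lower and 1 was higher, with a median of -0.19. Col1a1, the main chain of the type I collagen of scar, read 6.40, 6.77, 6.75, 6.65 and 7.07 in vehicle arrays and 6.75, 6.93, 6.80, 6.96 and 6.68 in I3C arrays. The groups overlapped throughout, the difference was 0.10 ± 0.11 (adjusted p = 0.775), and its 95% interval ran from -0.14 to 0.33. A second probe set of Col1a1 differed by 0.25 ± 0.10 (adjusted p = 0.254). Col1a2, its partner chain, differed by -0.25 ± 0.15 in the brightest probe set and by 0.04 ± 0.19 in the other. Col3a1, the reticular collagen of the sinusoid wall, differed by -0.10 ± 0.11.

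Col6a1, a chain of the beaded-filament collagen VI, was the collagen with the largest difference. It read 8.17, 8.39, 8.22, 8.23 and 8.48 in vehicle arrays and 7.77, 8.06, 8.05, 8.21 and 7.97 in I3C arrays, where only I3C 4 reached into the vehicle range. The difference was -0.29 ± 0.09 (adjusted p = 0.0998). The basement membrane pair that starts head to head lay close together, Col4a1 by -0.16 ± 0.09 and Col4a2 by -0.19 ± 0.08 (adjusted p = 0.458 and 0.236). Both were highest in vehicle 5, at 8.46 and 8.05. Col5a2, which regulates the width of collagen fibrils, differed by -0.21 ± 0.13.

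Genes of matrix turnover were split in their brightest probe sets, with 2 higher and 2 lower and none past the threshold. Mmp2, the gelatinase of stellate cells, read 7.03, 7.14, 6.83, 7.005 and 6.74 in vehicle arrays and 6.35, 6.88, 6.53, 6.87 and 6.76 in I3C arrays. Its groups overlapped, and it differed by -0.27 ± 0.11 (adjusted p = 0.241) in the brightest probe set and by -0.01 ± 0.07 in the other. Of the inhibitors of metalloproteinases, Timp1, the one that rises in fibrosis, differed by 0.08 ± 0.09 (adjusted p = 0.79). Timp2 differed by -0.20 ± 0.10 (adjusted p = 0.318) in its brightest probe set and by 0.04 ± 0.11 in the other. Lox, the lysyl oxidase that crosslinks collagen, differed by 0.21 ± 0.11 at a dim level, the 22.1st percentile of probe sets. Its other probe set, also dim, differed by -0.02 ± 0.09.

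None of the contractile and cytoskeletal genes passed, and all 4 were lower. Acta2, the smooth muscle actin of activated stellate cells, read 7.14, 6.96, 6.83, 7.01 and 7.25 in vehicle arrays and 6.99, 6.82, 6.86, 6.87 and 6.81 in I3C arrays. The ranges overlapped, and the difference was -0.17 ± 0.08 (adjusted p = 0.345), with a 95% interval of -0.34 to 0.01. Vim, the intermediate filament vimentin, read 8.91, 9.20, 8.77, 8.99 and 9.03 against 8.87, 8.90, 8.66, 8.95 and 8.35 in I3C arrays, of which I3C 5 was the lowest. It differed by -0.23 ± 0.12 (adjusted p = 0.371). Tagln, the actin-binding transgelin of smooth muscle, differed by -0.06 ± 0.13, and Des, desmin, the filament that marks rat stellate cells, by -0.01 ± 0.08.

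The profibrotic signals did not pass either. Tgfb1, the cytokine that drives collagen synthesis, read 6.89, 6.98, 6.95, 6.80 and 7.03 in vehicle arrays and 6.98, 6.89, 6.87, 6.92 and 6.61 in I3C arrays. It differed by -0.08 ± 0.08 (adjusted p = 0.737), with overlapping groups. Ccn2, connective tissue growth factor, read 6.58, 7.07, 7.14, 6.73 and 6.31 in vehicle arrays and 6.90, 6.97, 6.83, 7.54 and 6.97 in I3C arrays. Vehicle 5 was its lowest array and I3C 4 its highest, and the difference of 0.28 ± 0.17 did not pass (adjusted p = 0.484).

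**Figure D2:**
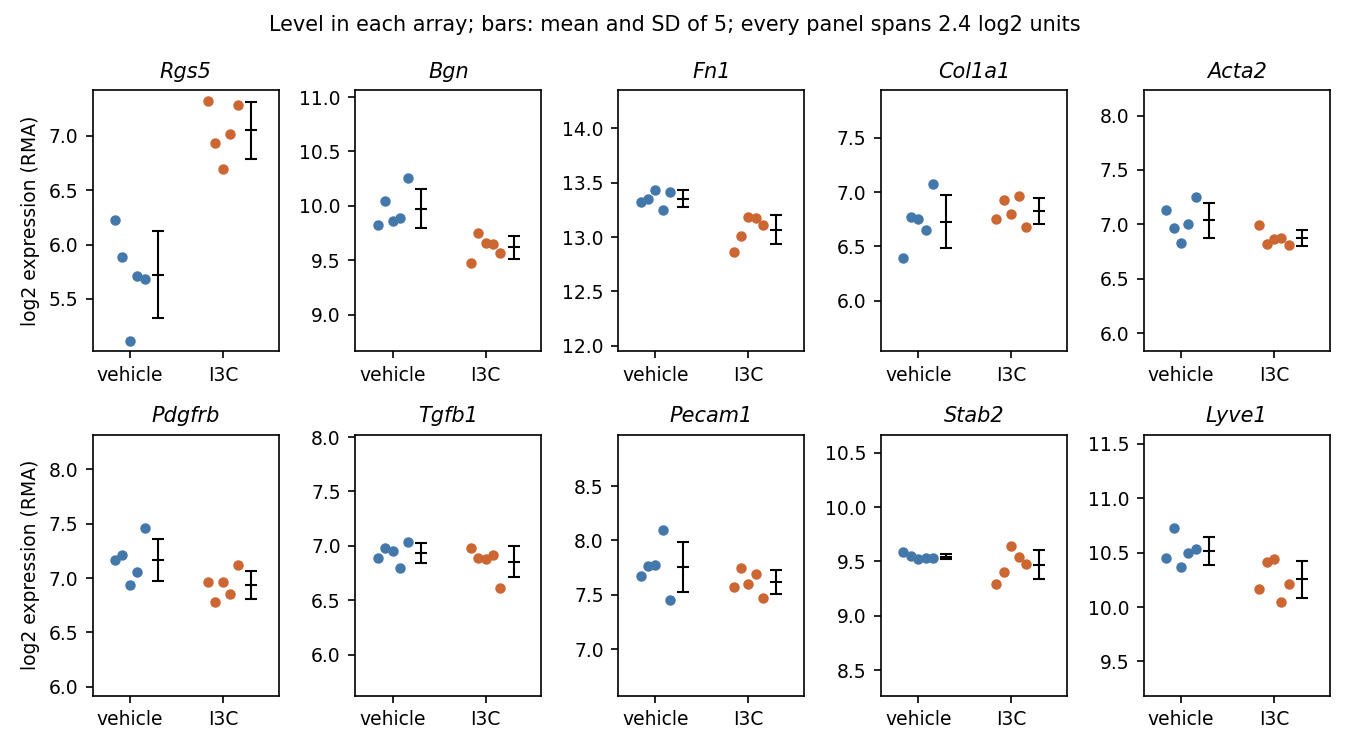
Log2 expression (y axis) of 10 members in each vehicle and I3C array, with the mean and SD of 5 arrays beside the points and the same height of scale in every panel. Rgs5 is apart by 0.47, Bgn by 0.08 and Fn1 by 0.06, while the groups of the other members overlap.

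Of the 10 measured endothelial members limma called 0 in either direction, beside 6.43% of all genes, and 1 was lower at an unadjusted p under 0.05. That gene was Lyve1, a hyaluronan receptor of sinusoidal and lymphatic endothelium. Lyve1 read 10.45, 10.72, 10.37, 10.50 and 10.53 in vehicle arrays and 10.16, 10.41, 10.44, 10.04 and 10.21 in I3C arrays. Vehicle 3 lay below 2 of the I3C arrays, and the difference was -0.26 ± 0.09 (adjusted p = 0.15). Its second probe set gave nearly the same value, -0.28 ± 0.09 (adjusted p = 0.12).

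The other sinusoidal markers were closer to 0. Stab2, the scavenger receptor that removes hyaluronan from blood, read 9.58, 9.55, 9.52, 9.53 and 9.53 in vehicle arrays and 9.29, 9.41, 9.64, 9.54 and 9.48 in I3C arrays. The vehicle values were tightly grouped inside the wider I3C range, and the difference was -0.07 ± 0.07 (adjusted p = 0.722, 95% interval -0.22 to 0.08). Stab1, the related stabilin that macrophages also carry, differed by -0.22 ± 0.14, and Ehd3, an endocytic protein of sinusoidal and glomerular endothelium, by -0.00 ± 0.15. Ehd3 was lowest in vehicle 4, at 8.36 against 8.94 to 9.24 in the other vehicle arrays.

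Among the genes common to all endothelium, Pecam1, the junctional adhesion molecule CD31, read 7.68, 7.77, 7.77, 8.09 and 7.45 in vehicle arrays and 7.57, 7.75, 7.60, 7.69 and 7.47 in I3C arrays. The I3C values lay inside the vehicle range, and the difference was -0.14 ± 0.10 (adjusted p = 0.621). Eng, endoglin, a co-receptor for TGF-beta family ligands, read 9.29, 9.33, 9.31, 9.11 and 9.81 in vehicle arrays and 9.15, 9.18, 9.33, 9.27 and 9.19 in I3C arrays, with vehicle 5 far above the rest. It differed by -0.15 ± 0.11 (adjusted p = 0.612). The receptors for vascular endothelial growth factor differed by -0.11 ± 0.07 for Kdr and -0.06 ± 0.09 for Flt1, and the angiopoietin receptor Tek by -0.07 ± 0.09. The other probe set of Kdr, with a dim vehicle mean of 4.71, lay at 0.03 ± 0.08, and those of Flt1 at 0.12 ± 0.08 and -0.00 ± 0.09. Vwf, the clotting glycoprotein of larger vessels, was the endothelial member that was higher, by 0.13 ± 0.09.

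Stellate and matrix members thus held all 3 calls and endothelial members 0, but the difference between the sides was not tested. The ranges of difference were -0.38 to 1.33 for stellate and matrix members and -0.26 to 0.13 for endothelial members. The mean log2 level of the 25 stellate and matrix members was 7.60 to 7.81 in vehicle arrays and 7.51 to 7.71 in I3C arrays, and that of the 10 endothelial members 8.62 to 8.71 and 8.50 to 8.66. Both pairs of ranges overlapped. Means of a gene's probe sets in place of the brightest gave a median of -0.11 for the stellate and matrix side, the same 3 members being called. Of the 12 members with several probe sets, 7 had probe sets of opposite sign, whereas Rgs5, Bgn and Fn1 each rest on 1 probe set.

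The members also varied from array to array within a group. The median SD within groups was 0.17 for stellate and matrix members, 0.15 for endothelial members and 0.14 over all genes. The most variable member was Rgs5 (0.34), followed by Dcn and Lum (0.32 each), Ccn2 (0.32) and Col1a2 (0.28), with Ehd3 (0.28) the most variable on the endothelial side. Vehicle 2 had 21 of the 25 stellate and matrix members above their vehicle mean, and vehicle 1 had 8. In the I3C group 20 were above the group mean in I3C 4 and 8 in I3C 5. The endothelial members were most often above the mean in I3C 2 and I3C 3, in 8 of 10 each, and least often in I3C 5, in 2. I3C 5 was thus low for both sides, and in it the macrophage markers were also lowest, at a mean log2 level of 9.34 beside 9.67 to 9.72 in the other I3C arrays.

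Of 17 measured markers of stellate cells and portal fibroblasts outside the members 3 fell, 1 rose and 13 did not pass, beside 3.11% of all genes that fell and 3.32% that rose. At an unadjusted p under 0.05, 6 were lower (35.3%, beside 10.2% of all genes) and 1 was higher, and the median difference was -0.14. Pth1r, the parathyroid hormone receptor, fell by 0.55 ± 0.09, Lrat, which makes the retinyl esters that stellate cells store, by 0.51 ± 0.10, and Colec11, a collectin, by 0.34 ± 0.07 (limma adjusted p = 0.00303, 0.00889 and 0.0171). Lrat read 7.81 to 8.20 in vehicle and 7.33 to 7.76 in I3C arrays, which did not overlap. The risen marker was Fgfr2, a fibroblast growth factor receptor (0.31 ± 0.07, limma adjusted p = 0.0254), whose call ended at 0.10 when its probe sets were averaged, and also without vehicle 2 or 3 or I3C 2 or 3. Averaged over its probe sets Pth1r stood at -0.35, still past the threshold.

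Among 34 other collagens, laminins and matrix proteins 3 fell and 0 rose, or 8.82% called beside 6.43% of all genes. By unadjusted p 5 were lower (14.7%, beside 10.2% of all genes) and 0 higher, and the median was -0.11. Ecm1, a glycoprotein that holds TGF-beta latent in the liver, fell by 0.45 ± 0.08, Col14a1, a fibril-associated collagen, by 0.43 ± 0.08, and Lama2, a laminin chain, by 0.29 ± 0.08 (limma adjusted p = 0.00854, 0.00586 and 0.046). Lama2 kept its call only without vehicle 3 or 4 among the 10 omissions of an array. Ecm1 lay at 10.36 to 10.85 in vehicle and 10.13 to 10.21 in I3C arrays. Of 23 genes of collagen processing and matrix proteolysis 2 fell and 0 rose, or 8.70% called beside 6.43% of all genes. By unadjusted p 7 were lower (30.4%, beside 10.2% of all genes) and 1 was higher. The fallen genes were Timp3, a matrix-bound inhibitor, by 0.40 ± 0.07, and Mmp14, the membrane protease that activates the Mmp2 protein, by 0.37 ± 0.08 (limma adjusted p = 0.0052 and 0.013). The average of the Timp3 probe sets stood at -0.24, still past the threshold.

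In the TGF-beta and platelet-derived growth factor pathway 1 of 20 genes fell and 0 rose, or 5% called beside 6.43% of all genes. By unadjusted p 4 were lower (20%, beside 10.2% of all genes) and 1 was higher. The fallen gene was Tgfbi, a matrix protein named for its induction by TGF-beta, at 11.75 to 11.84 in vehicle and 11.20 to 11.33 in I3C arrays. Its difference was -0.54 ± 0.06 (SE, n = 5 per group, limma adjusted p = 0.000147). Tgfbr1, the brightest gene of that list with Tgfbi, differed by -0.13 ± 0.10. Of 12 smooth muscle and mesothelial markers limma called 0, beside 6.43% of all genes. At an unadjusted p under 0.05, 2 were lower (16.7%, beside 10.2% of all genes) and 0 higher. The brightest of these markers, Cald1 and Tpm1, differed by -0.06 ± 0.09 and 0.13 ± 0.14.

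Among 60 further endothelial genes 3 fell and 0 rose, which is 5% beside 6.43% of all genes. At an unadjusted p under 0.05, 11 were lower (18.3%, beside 10.2% of all genes) and 1 was higher, and the median was -0.07. Nrp2, a co-receptor for vascular endothelial growth factors and semaphorins, fell by 0.61 ± 0.07, from 8.54 to 8.75 in vehicle arrays to 7.89 to 8.08 in I3C arrays. S1pr1, the sphingosine 1-phosphate receptor that steadies vascular barriers, fell by 0.60 ± 0.10, and Ephb4, the ephrin receptor of veins, by 0.25 ± 0.07 (limma adjusted p = 0.000181, 0.00376 and 0.0466 for the 3 in this order). The averages of their probe sets stood at -0.34 for Nrp2 and -0.29 for S1pr1, both still past the threshold. Ephb4 kept its call only without vehicle 5 or I3C 2 among the 10 omissions of an array. None of these lists is specific to a cell type in bulk liver, and they were chosen with earlier results of these data known.

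**Figure D3:**
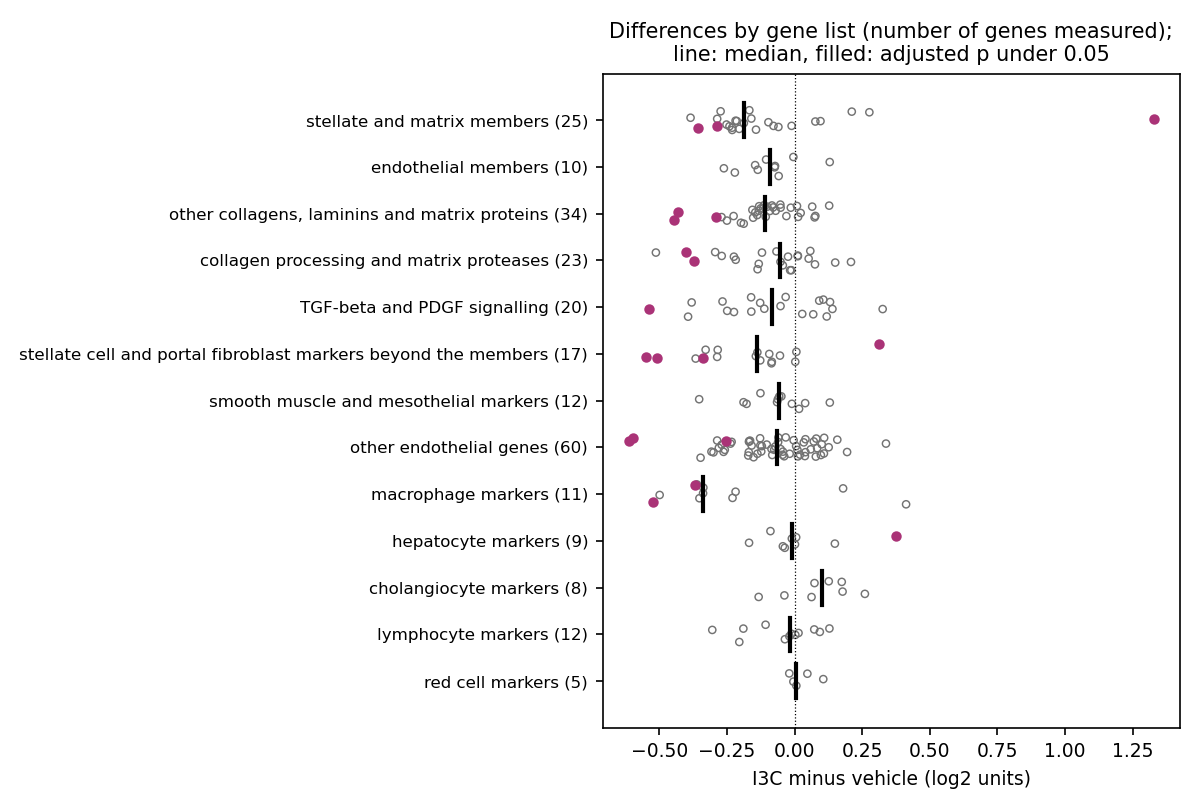
Difference between I3C and vehicle means in log2 units (x axis) for every measured gene of the member lists, of the pathway lists and of markers of other liver cells (y axis), with the list median as a line. Medians of the stellate, matrix and endothelial lists lie between -0.19 and -0.05, that of the macrophage markers at -0.34, and those of hepatocyte, lymphocyte and red cell markers near 0, with the cholangiocyte markers at 0.10.

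Of 11 measured macrophage markers 2 fell, 0 rose and 9 did not pass, or 18.2% called beside 6.43% of all genes. With an unadjusted p under 0.05, 8 were lower (72.7%, beside 10.2% of all genes) and 1 was higher. The median was -0.34. Cd5l, a secreted scavenger receptor protein, fell by 0.52 ± 0.12 and C1qa, a complement chain, by 0.37 ± 0.08 (limma adjusted p = 0.0256 and 0.0197). The marker that was higher was Lyz2, a lysozyme, at 0.41 ± 0.15 (adjusted p = 0.153), named after its value was seen. Cd5l lost its call without vehicle 1, 2 or 4 or I3C 1, 4 or 5, and C1qa without vehicle 1 or I3C 5. The mean log2 level of the list was 9.69 to 10.06 in vehicle and 9.34 to 9.72 in I3C arrays. Values on this log2 scale do not reach 0, so that no marker can be called absent. The part of these cells in the values of the members was not tested. Of 9 hepatocyte markers 1 rose and 0 fell, or 11.1% called beside 6.43% of all genes. By unadjusted p 1 was lower (11.1%, beside 10.2% of all genes) and 1 was higher. The risen marker was Apoa1, an apolipoprotein (0.38 ± 0.07, limma adjusted p = 0.00883), while Alb and Ttr, the main plasma proteins of hepatocytes, differed by 0.00 ± 0.05 and -0.04 ± 0.05. Of 8 cholangiocyte, 12 lymphocyte and 5 red cell markers limma called 0, beside 6.43% of all genes. Of the lymphocyte markers 2 were lower at an unadjusted p under 0.05 (16.7%, beside 10.2% of all genes), and no other marker of these lists passed it. Krt18 and Krt8, keratins of bile duct cells and hepatocytes, differed by 0.18 ± 0.09 and 0.17 ± 0.15, Ptprc and Cd4 of leukocytes by -0.20 ± 0.12 and -0.11 ± 0.10, and Hbb and Alas2 of red cells by -0.02 ± 0.20 and -0.00 ± 0.16.

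A measure of RNA integrity did not overlap between the groups, so that treatment and this measure cannot be told apart in this design, and the values with it in the model are given as a description. For the GAPDH controls of the array the 3′ probe set exceeded the 5′ one by 0.32 to 0.65 in vehicle arrays and 0.16 to 0.29 in I3C arrays, and for beta-actin by 1.45 to 1.74 and 1.17 to 1.53. The GAPDH value of 0.65 was that of vehicle 5 alone, and the other vehicle arrays lay at 0.32 to 0.45. How far the fit with the GAPDH measure rests on vehicle 5 was not tested. With that GAPDH measure added, limma called 0 members, where 1.6% of all genes were called, and at an unadjusted p under 0.05, 3 of 35 members were lower, beside 9.89% of all genes, and 1 was higher. The share of members lower at that p was thus near the background, and without the measure 10 of 35 were lower at that p. By sign alone 22 of 35 members were lower with the measure, beside 6803 of 14217 genes. Their median difference was then -0.10, beside 0.01 over all genes. The SE of Rgs5 was 0.30 with the measure and 0.18 without it, and a larger SE by itself lets fewer genes pass. With the measure Rgs5 lay at 1.19 ± 0.30 (limma adjusted p = 0.093) and Fn1 at -0.27 ± 0.13 (limma adjusted p = 0.345). Bgn lay at -0.15 ± 0.13 (limma adjusted p = 0.608). Ccn2 stood at -0.28 ± 0.20 in place of 0.28, and Sparc, Acta2 and Col4a2 at 0.01, -0.01 and 0.02. Other members lay further down with the measure: Mmp2 at -0.48 in place of -0.27, Dcn at -0.48 in place of -0.14. Pdgfra lay at -0.44 in place of -0.24. On the endothelial side Pecam1, Tek and Kdr lay lower than without it, at -0.32, -0.27 and -0.24, whereas Eng, Stab1 and Flt1 were higher, at 0.16, 0.11 and 0.19. The endothelial median was then -0.05, with 5 of 10 lower, and the stellate and matrix median -0.13, with 17 of 25 lower.

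Of the 16 other named genes that passed, 3 did so here too. Tgfbi (-0.51 ± 0.09), Nrp2 (-0.69 ± 0.10) and S1pr1 (-0.78 ± 0.15) stayed past the threshold (limma adjusted p = 0.023, 0.00987 and 0.0361). Lrat (-0.53 ± 0.16) and Colec11 (-0.44 ± 0.12) and Pth1r (-0.36 ± 0.13) did not pass. With the beta-actin measure added, Rgs5 was the only member called, at 1.18. Of the same 16 genes 6 passed there: Tgfbi, Nrp2, Ecm1, Pth1r, Colec11 and C1qa. S1pr1 lay at -0.49 (limma adjusted p = 0.0672) and Lrat at -0.36 (limma adjusted p = 0.133).

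**Figure D4:**
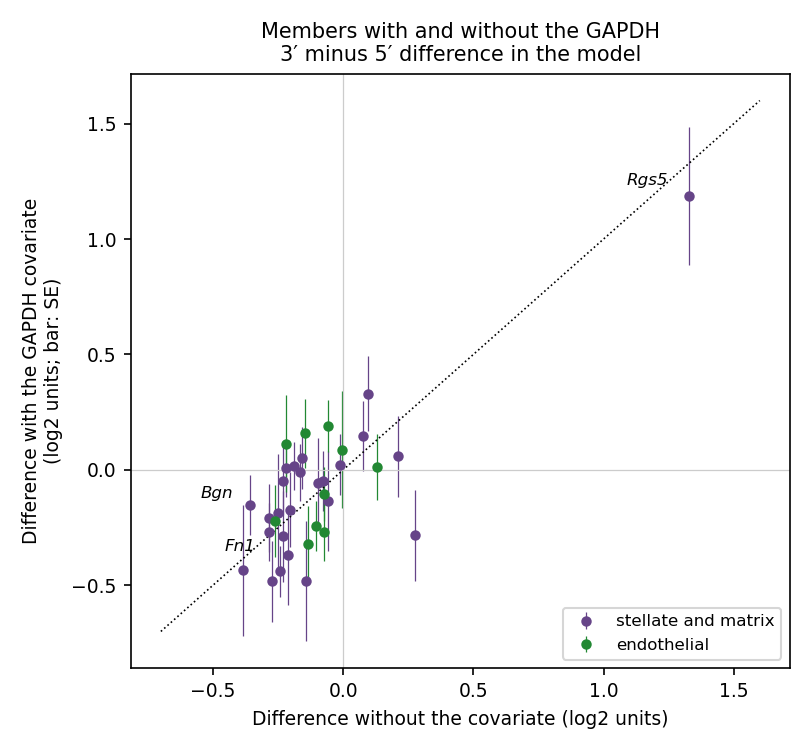
Difference of each member in log2 units without (x axis) and with (y axis, bars are SE) the GAPDH 3′ minus 5′ difference as a covariate; the dotted line marks equal values. Rgs5 (1.33 and 1.19) and Fn1 (-0.29 and -0.27) lie near the line, and Bgn (-0.36 and -0.15) above it.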

How the data were processed

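The deposited table holds the authors' log2 expression values, which the submitters' processing notes credit to RMA, a robust multi-array summary; its version is not given in the sources used here. This step pulls array distributions together and compresses large folds. Values ran from 3.00 to 15.12 and array medians from 6.21 to 6.29. No array was a copy of another (lowest SD of a pair's difference 0.17). The labels' protocols state that amplification began with 5 ug of total RNA at the 3′ end, and the number of arrays limits the precision.

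Of 31042 probe sets outside the controls, 20826 carry 1 gene in the platform annotation of 2016, 436 several and 9780 none here; those with several, 5 of them naming Acta2, were not used. Symbols follow RefSeq by Entrez ID (20758 probe sets). Of 239 symbols in the 11 pathway and marker lists, 211 were matched.

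Fits used limma 3.58.1 in R 4.3.3 (lmFit, eBayes without trend). On simulated arrays of this comparison over 31042 probe sets 56 of 67 simulated 1.5-fold changes and 66 of 67 simulated 2-fold changes were recovered. Of the unchanged probe sets 9 were called. Each probe set was simulated on its own, without the deviations that genes of 1 array share. Fewer probe sets were changed there than were called in the data, so that these counts may not carry over to it. Smaller folds, such as the 1.28 of Bgn and the 1.22 of Fn1, were not simulated. The members and lists were chosen with earlier results of these data known. All members are described; values in every array are given for members past the threshold, the largest difference of each role list, and Col1a1, Acta2, Pdgfrb, Tgfb1, Pecam1, Stab2 and Lyve1. Of each other list up to 4 genes past the threshold are named, or also the 2 brightest where fewer than 2 passed. Further genes are named after their values were seen. The alternatives were another variance model, a block by replicate number, leaving out dim probe sets, repeated quantile normalisation, median centring, array weights, probe set means, a stricter threshold, the GAPDH and beta-actin differences as covariates, and leaving out each array.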

Additional observations from a re-analysis of the deposited data

Results flagged for a closer look

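In 4 groups a single array stood apart from the other 4 by more than Dixon's limit at the 95% level, of which 3 concern members, out of 70 member groups looked at. Chance flags about 1 in 20 groups. I3C 5 was low for Col1a2, at 6.53 beside 7.10 to 7.32 in the other I3C arrays. I3C 4 was high for Ccn2, at 7.54 beside 6.83 to 6.97. I3C 1 was low for Stab1, at 6.99 beside 7.48 to 7.59. Outside the members, I3C 3 was low for Nrp2, at 7.89 beside 8.05 to 8.08. Without the array in question Col1a2, Ccn2 and Stab1 did not pass, as with it, and Nrp2 kept its call.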

How the results depend on the processing

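Every setting that gave the members a call called Rgs5, and the endothelial members had 0 calls under all of them. The 3 calls among the 35 members, all on the stellate and matrix side, became 1 with the replicate number as a block, at a threshold of 0.01 and with the beta-actin measure added, and 0 with the GAPDH measure. Leaving out 1 array gave 1 to 3 calls. Over all genes the 914 calls became 437 at the threshold of 0.01, 228 with the GAPDH measure, 498 with the beta-actin measure and 647 with the block, and 651 to 1243 without 1 array. The block moved Bgn to an adjusted p of 0.0668 and Fn1 to 0.0930 (limma). Outside the members it also ended the calls of Mmp14, Colec11, C1qa, Lama2, Fgfr2 and Ephb4, at limma adjusted p of 0.0569 to 0.143. Replicate numbers do not pair the arrays: deviations of same-numbered arrays correlated at -0.28 to 0.22, and 2 of 10 arrays correlated best with their own number. Bgn also lost its call with repeated quantile normalisation (limma adjusted p = 0.0673) and Fn1 with median centring (limma adjusted p = 0.0618). The cause of these losses was not tested.

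The stellate and matrix median lay between -0.25 and -0.11 over these settings and the endothelial median between -0.12 and -0.05. Of the 32 members that did not pass, 13 changed sign under at least 1 of 20 alternatives (19 for Lum and Lox) and 1, Pdgfra, passed under at least 1. The other variance model, the block, the filter on dim probe sets and the stricter threshold leave a difference as it is and could not change its sign. The stricter threshold could not add a call either. The filter on dim probe sets removed Lum and Lox. With 5 arrays per group small differences are not resolved: the intervals of most members reach 0.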
